A study of Mus musculus with 8 samples.

Results

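The antioxidant enzymes and metallothioneins described here are 10 genes: the superoxide dismutases Sod1 and Sod2, catalase (Cat), the glutathione peroxidases Gpx1, Gpx3 and Gpx4, the mitochondrial peroxiredoxin Prdx3, the mitochondrial thioredoxin Txn2, and the metallothioneins Mt1 and Mt2. They were chosen by name, as every alternative polyadenylation site (APS) that the deposited expression table assigns to one of these symbols. This gave 27 of 56483 APSs and 10 of the 15378 genes with an APS.

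Superoxide dismutases turn superoxide into hydrogen peroxide, Sod1 in the cytosol and Sod2 in the mitochondrial matrix. Catalase, the glutathione peroxidases and the peroxiredoxins remove peroxides, the last with electrons from thioredoxin. Metallothioneins are small cysteine-rich proteins that bind zinc and copper, and their genes are induced by zinc, glucocorticoids and oxidative stress, also in skeletal muscle.

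Gastrocnemius muscle was taken from 2 AMPKα1 knockout (KO) and 2 wild-type (WT) mice and from 2 AMPKα2 KO and 2 WT mice, all male, with 1 library per mouse. AMPKα1 and AMPKα2, encoded by Prkaa1 and Prkaa2, are the catalytic subunits of the energy sensor AMPK, and each KO was present in the whole animal. The sample labels give adult mice of strain C57BL/6 for all 8 libraries, whereas the study's methods give AMPKα1−/− 129S2/SvPas mice and AMPKα2−/− C57BL/6 mice of different ages, with no age for the WT mice. WTTS-seq (whole transcriptome termini site sequencing) reads the 3′ ends of polyadenylated RNA on 1 strand, so that the reads at an APS are taken to count transcripts that end there.

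The libraries held 2311242 to 3549156 reads, of which 82.1% to 98.1% lay on APSs with a gene. The 10 members took at most 0.273% of the reads on genes. Levels are given in CPM, the reads of a gene per 1000000 reads on genes after TMM scaling within each model. CPM was not divided by gene length, because each read is taken to mark 1 transcript end. A count of 3 reads, set here as a floor, corresponds to 0.829 to 1.91 CPM. This floor and all intervals hold counting error alone, since the reads come from PCR and carry no molecular identifier. The models were scaled apart, so levels are not compared between them. Reads of the targeted genes did not separate the genotypes: Prkaa1 gave 0 and 82 reads in AMPKα1 KO against 15 and 0 in WT, and Prkaa2 gave 40 and 71 reads in AMPKα2 KO against 87 and 62 in WT. By the study's discussion each KO lacks a part of the catalytic domain, and the reads mark 3′ ends, so they do not check the labels. KO and WT mean the libraries labelled so throughout. The 8 fibre markers Acta1, Ckm, Myh4, Myh1, Tnnt3, Pvalb, Atp2a1 and Mylpf together stood at 51852 to 142800 CPM in every library, with none at 0. All 8 were below 0 on the log2 scale in AMPKα1 (68129 to 78134 CPM in KO, 100527 to 142800 CPM in WT, 4 at an unadjusted p under 0.05), and none was called.

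In AMPKα2 KO mice, Mt2 was 15.04-fold lower than in WT mice, and Mt1 was lower in both KO libraries than in either WT library, by about 3.76-fold, with an adjusted p that just missed the threshold. Whole muscle was sampled, so fewer cells of a type and less RNA per cell cannot be told apart. None of the 8 antioxidant enzymes was called in either model, against 0.673% of all genes tested in AMPKα2. In AMPKα1 mice, no member was called, and neither was any of the 13941 genes tested. The KO and WT libraries of AMPKα1 overlapped for all 10 members, whereas those of 32.5% of all genes tested did not. Differences were tested within each model with edgeR's quasi-likelihood test over all genes with at least 16 reads in the 4 libraries, and called at a Benjamini-Hochberg adjusted p under 0.1.

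**Figure D1:**
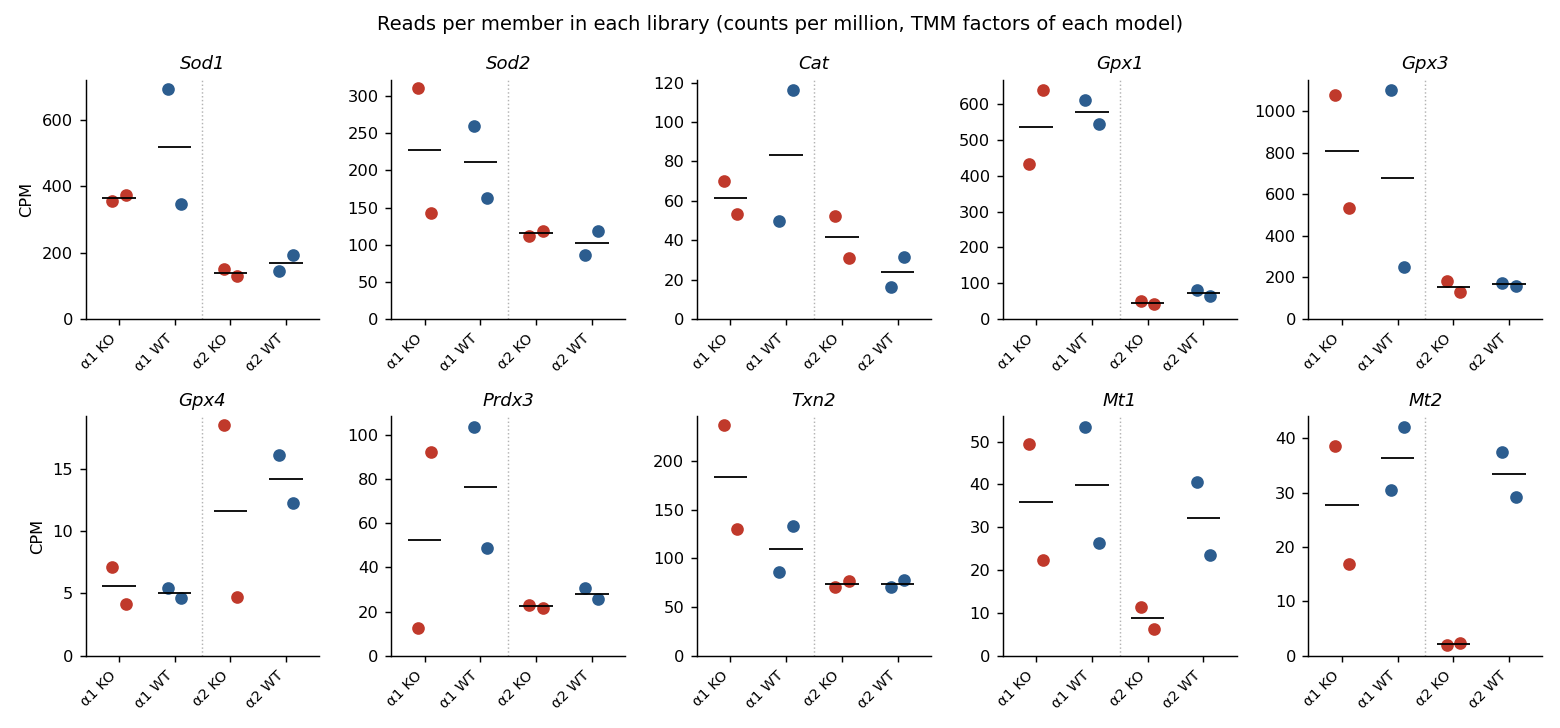
CPM of each member (vertical axis, starting at 0, its own scale in each panel) in each library, with KO in red, WT in blue and the mean of 2 libraries as a bar; the dotted line separates the AMPKα1 model (left) from the AMPKα2 model (right), which were scaled apart. In the AMPKα2 model the KO points of Mt1 (11.5 and 6.29 CPM) and Mt2 (1.91 and 2.36 CPM) lie below both WT points, while in the AMPKα1 model the points of all 10 members overlap.

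Each member had a dominant 3′ end. Its APS with most reads held 90.3% to 100% of the member's reads over the 8 libraries. For 7 of 10 members it lay within 10 bases of an annotated transcript end. Gpx1, Gpx4, Mt1 and Mt2 had 1 APS each, and Sod2 had the most, 7. Of the 27 APSs, 24 lay on the strand of the gene, and 12 of these were in a 3′ UTR, 4 downstream of the gene, 4 in a coding exon and 4 in an intron, by the GENCODE release M21 annotation of GRCm38. The other 3 were antisense, in Gpx3, Sod1 and Sod2.

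The 30 transcribed bases that end at the dominant APS, or at the annotated transcript end where the APS lies 1 to 5 bases past it, are shown for the 10 members. These ends held most reads of each member over the 8 libraries. In single AMPKα2 libraries the share fell to 61.0% for Cat and to 74.0% for Sod2. The bases were read from GENCODE M21 transcripts (GRCm38), 5′ to 3′, and capitals mark the polyadenylation hexamer.
Mt1, chr8:94180298-94180327, + strand: cgtgaatAATAAAagcctgtttgagtctaa
Mt2, chr8:94173534-94173563, + strand: aactgacAATAAAagccgttgacttgatta
Sod1, chr16:90226297-90226326, + strand: ccctcaaaccATTAAActgtaatctgaaga
Sod2, chr17:13015309-13015338, + strand: tattttaATTAAAtctattcttaggcaact
Cat, chr2:103454003-103454032, − strand: acatttttacAATAAAatgatctacatgga
Gpx1, chr9:108340314-108340343, + strand: tactaagAATAAAgtgctgaatatcagaat
Gpx3, chr11:54910348-54910377, + strand: catctgcccAGTAAAggtctttctgcagca
Gpx4, chr10:80056410-80056439, + strand: tgccttgtgggAATAAAatgtagaaatgtg
Prdx3, chr19:60864073-60864102, − strand: gctggatatatagAATAAAAATAAAcatta
Txn2, chr15:77915047-77915076, − strand: cagaccAATAAAaccaggtttgcactgcca
The canonical hexamer AATAAA stood in 7 of 10 windows, the common variant ATTAAA in those of Sod1 and Sod2, and AGTAAA in that of Gpx3. Prdx3 held AATAAA 2 times in a row. The windows of Mt1 and Mt2 share 14 of 30 positions, so that reads from these related genes can be told apart at their ends.

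**Figure D2:**
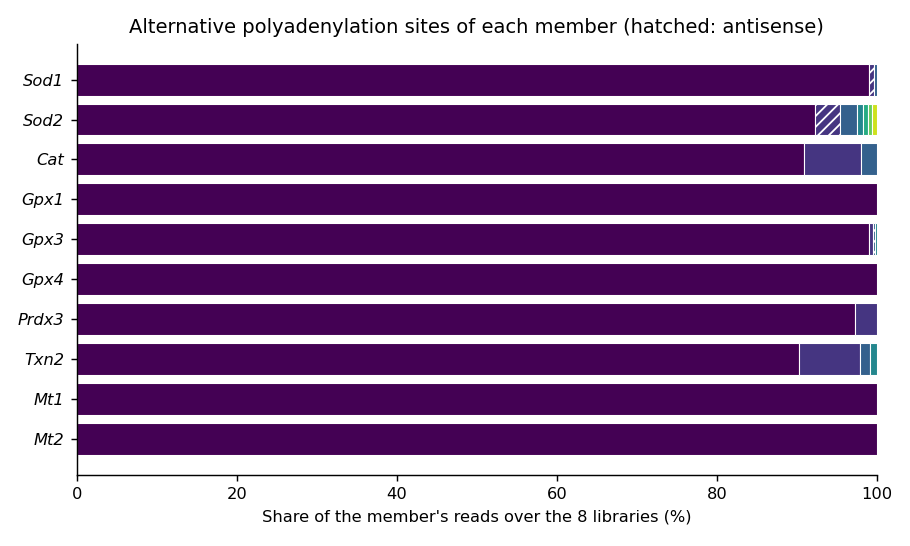
Share of each member's reads over the 8 libraries (horizontal axis, %) at each of its APSs, stacked from the site with most reads, with antisense sites hatched. The first site fills at least 90.3% of every bar.

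Mt2 (chr8:94172664-94173568, + strand) ends at a single APS in its 3′ UTR. Its reads numbered 3 and 6 in AMPKα2 KO (1.91 and 2.36 CPM) against 128 and 62 in WT (37.4 and 29.3 CPM). Both KO libraries were therefore near the chosen floor of 3 reads, and both WT libraries stood far above it. The log2 fold change was −3.91 (standard error, SE, 0.41, edgeR adjusted p = 0.0017). From the pooled reads, 9 in KO and 190 in WT, the level was 15.7-fold lower in KO, with a counting interval of 8.08 to 34.8 (exact binomial, 95%). Mt2 was the only member called. In this comparison, edgeR called 0.673% of 10552 genes in either direction and 0.303% as lower in KO, and Mt2 ranked at place 9 by p.

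Mt1 (chr8:94179082-94180327, + strand), which lies next to Mt2 on the same strand, gave 18 and 16 reads in AMPKα2 KO, or 11.5 and 6.29 CPM. It had 139 and 50 reads in WT, 40.6 and 23.6 CPM. Both KO libraries were lower than either WT library, and the WT libraries differed by 1.72-fold between themselves. The log2 fold change was −1.91 (SE 0.41, edgeR adjusted p = 0.104, unadjusted p = 0.00071), outside the threshold. The pooled reads, 34 in KO and 189 in WT, gave a level 4.12-fold lower in KO, with a counting interval of 2.85 to 6.13.

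DESeq2 on the same counts called Mt1 (adjusted p = 0.098) and Mt2, 2 of 10 members, and 1.18% of the 6956 genes for which it gave an adjusted p. The call of Mt1 therefore depends on the setting. It passed in 7 of 14 alternatives, while Mt2 passed in 13 of 14 and missed when all 8 libraries shared 1 fit (adjusted p = 0.255). Leaving out any 1 of the 4 libraries kept Mt2 between −4.10 and −3.72 on the log2 scale, and Mt1 between −2.36 and −1.46, where Mt1 passed without WT replicate 2 (adjusted p = 0.0706).

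**Figure D3:**
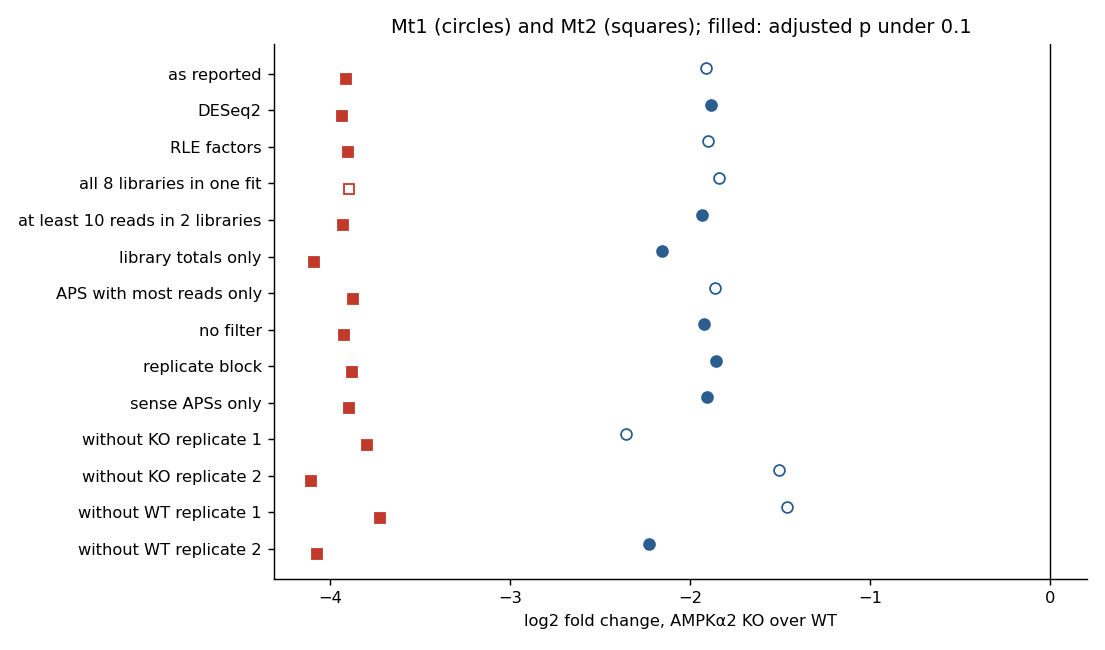
Log2 fold change of AMPKα2 KO over WT (horizontal axis) of Mt1 (blue circles) and Mt2 (red squares) as reported and under each alternative (rows), filled where the adjusted p was under 0.1. All points lie below 0, Mt2 between −4.10 and −3.72 where a library was left out, and the circles are a mix of filled and open.

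The proportion of the metallothioneins to each other is given as a description. Mt2 made up 14.3% (3 of 21 reads, 95% Wilson interval 4.98% to 34.6%) and 27.3% (6 of 22 reads, 13.2% to 48.2%) of the Mt1 and Mt2 reads in the AMPKα2 KO libraries. In the WT libraries of the model it made up 47.9% (42.0% to 53.9%) and 55.4% (46.1% to 64.2%). The KO shares were below both WT shares, although 1 KO interval reaches into the WT intervals. In the AMPKα1 model the share was 43.9% and 43.0% in KO and 36.4% and 61.4% in WT, where the groups overlap. With 2 mice against 2, an exact permutation test of such a share cannot give a two-sided p below 0.333, so none was run.

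In the AMPKα1 model, Mt2 had 38.7 and 16.8 CPM in KO and 30.6 and 42.0 CPM in WT. Mt1 had 49.5 and 22.4 CPM in KO and 53.5 and 26.4 CPM in WT. For both genes the libraries of each genotype differed by more than the genotype means. The log2 fold changes were −0.39 (SE 0.73) for Mt2 and −0.15 (SE 0.73) for Mt1, each with an edgeR adjusted p of 0.999. The difference between the KO effects was tested by an interaction term in 1 fit of the 8 libraries. It was −3.57 on the log2 scale for Mt2 (SE 0.82, unadjusted p = 0.0016, edgeR adjusted p = 0.303) and −1.77 for Mt1 (adjusted p = 0.735), so that neither passed. The interaction was called for 0 of 10 members and for 0.065% of 15378 genes, and DESeq2 called Mt2 (adjusted p = 0.0693). The Mt2 interaction passed in 3 of 14 alternatives, and not with the replicate block (edgeR adjusted p = 0.857). Leaving out any 1 of the 8 libraries kept it between −4.17 and −2.81 on the log2 scale. Of the 10 members, only Mt2 had an unadjusted p under 0.05 in edgeR's test, and the share of all genes with such a p is not given here.

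**Figure D4:**
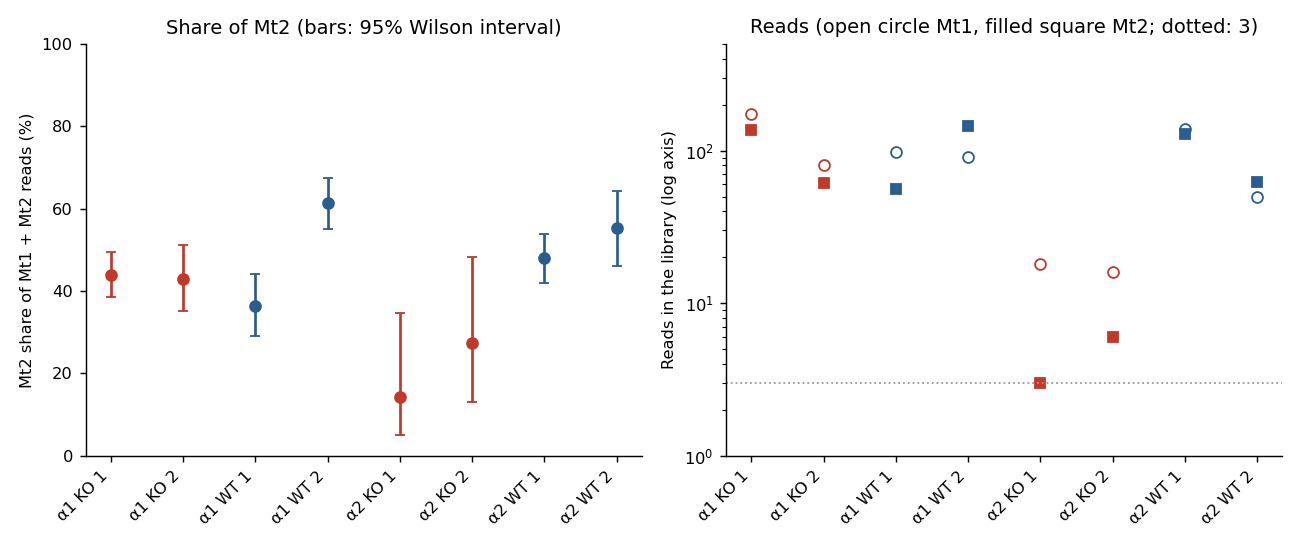
Left, share of Mt2 among the reads of Mt1 and Mt2 in each library (vertical axis, %), with 95% Wilson intervals. Right, reads of Mt1 (open circles) and Mt2 (filled squares) in each library on a log axis, with 3 reads as a dotted line; KO is red and WT is blue, and the 2 KO libraries of AMPKα2 hold 3 and 6 Mt2 reads against 128 and 62 in WT.

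Genes of metallothioneins are known to be switched on by the zinc sensor Mtf1 through metal response elements with the core TGCACNC or TGCGCNC. This core was searched on both strands in the RefSeq promoter windows of GRCm38.p6, which run from 250 bases before to 50 bases after a gene start. Mt2 had 4 matches, a number reached by 0.517% of 32851 promoter windows, and Mt1 had 3, reached by 1.97%. The windows of the other 8 members had no match. At least 1 match was found in 25.7% of all windows. The 250 bases before the RefSeq start, a part of the window searched, are shown for both genes because some of the matches were found there. Capitals mark these matches, which are read on either strand.
Mt1, chr8:94178839-94179088, + strand: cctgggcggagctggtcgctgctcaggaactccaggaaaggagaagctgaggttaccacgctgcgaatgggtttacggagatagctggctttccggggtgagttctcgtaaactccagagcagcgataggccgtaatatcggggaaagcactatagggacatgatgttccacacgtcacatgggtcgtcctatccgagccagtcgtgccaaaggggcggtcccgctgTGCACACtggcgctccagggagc
Mt2, chr8:94172368-94172617, + strand: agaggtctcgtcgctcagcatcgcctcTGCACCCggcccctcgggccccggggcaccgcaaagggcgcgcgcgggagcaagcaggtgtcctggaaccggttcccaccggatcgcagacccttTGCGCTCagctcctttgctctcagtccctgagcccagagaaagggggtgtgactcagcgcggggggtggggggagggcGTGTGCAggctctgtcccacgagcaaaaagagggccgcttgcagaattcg
Of the matches, 3 in Mt2 and 1 in Mt1 lay before the RefSeq start and are shown, and the rest lay after it. The RefSeq start of each gene differs from the GENCODE start given with the gene coordinates above. The core of the antioxidant response element, TGACNNNGC, to which Nfe2l2 binds, had 1 match each in the windows of Mt2 and Sod1 and none in those of the other 8 members, against at least 1 in 12.4% of all windows. A match of letters is a description and no evidence of binding.

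Among the superoxide dismutases, Sod1 (chr16:90220754-90226329, + strand) stood at 150 and 130 CPM in AMPKα2 KO against 144 and 194 CPM in WT. The groups overlapped, with a log2 fold change of −0.27 (SE 0.25, adjusted p = 0.816). In the AMPKα1 model Sod1 stood at 354 and 374 CPM in KO and at 692 and 346 CPM in WT. There, 1 WT library was high and the other was below both KO libraries (log2 fold change −0.51, SE 0.45, adjusted p = 0.877).

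Sod2 (chr17:13006846-13040063, + strand), the mitochondrial enzyme, had 112 and 118 CPM in AMPKα2 KO and 86.8 and 118 CPM in WT, a log2 fold change of 0.17 (SE 0.25, adjusted p = 0.896). In AMPKα1 it had 311 and 143 CPM in KO and 260 and 163 CPM in WT (0.10, SE 0.52). The KO and WT libraries overlapped in each model. Its dominant APS lies inside the 3′ UTR, far before the nearest annotated transcript end, and held 74.0% to 100% of the Sod2 reads per library. The APS at position 13020127, close to an annotated end and named after its values were seen, had 2.07% of the reads over all libraries, and 26 of its 76 reads came from 1 AMPKα1 WT library.

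Cat (chr2:103453849-103485160, − strand), the peroxisomal enzyme that breaks down hydrogen peroxide, had 52.3 and 31.1 CPM in AMPKα2 KO and 16.4 and 31.6 CPM in WT. The lower KO library overlapped the higher WT library. Its log2 fold change of 0.80 (SE 0.38, adjusted p = 0.611) was the highest of the 10 members in this model, and ranged from 0.37 to 1.33 when 1 library was left out. In AMPKα1, Cat had 70.0 and 53.3 CPM in KO and 49.7 and 116 CPM in WT, and the log2 fold change was −0.43 (SE 0.58, adjusted p = 0.994).

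In the AMPKα2 model part of the Cat reads came from a second APS. Whether transcripts end at it was not tested. This APS, in a coding exon at position 103476759, counted 32 and 29 reads in KO against 13 and 13 in WT, and no read in any AMPKα1 library. Its log2 fold change was 1.54 (SE 0.51, adjusted p = 0.626), against 0.30 (SE 0.47) at the dominant APS, at position 103454003, with 50 and 50 reads in KO against 43 and 54 in WT. The dominant site therefore held 61.0% and 63.3% of the Cat reads in KO and 76.8% and 80.6% in WT. In the AMPKα1 model it held 94.0% to 100%.

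The glutathione peroxidases reduce peroxides with glutathione, Gpx1 in the cytosol and mitochondria, Gpx3 as a secreted enzyme, and Gpx4 on peroxidised membrane lipids. Gpx1 (chr9:108338903-108340343, + strand) had 49.7 and 40.9 CPM in AMPKα2 KO and 82.4 and 65.2 CPM in WT. Both KO libraries were below both WT libraries, by 1.64-fold in the fit. The log2 fold change of −0.71 (SE 0.26, unadjusted p = 0.021) gave an adjusted p of 0.455 over all genes and did not pass. In AMPKα1, Gpx1 had 433 and 639 CPM in KO and 612 and 544 CPM in WT, with the KO libraries on either side of the WT libraries (−0.11, SE 0.38).

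Gpx3 (chr11:54902453-54910377, + strand) had 183 and 129 CPM in AMPKα2 KO and 175 and 158 CPM in WT (log2 fold change −0.09, SE 0.26, adjusted p = 0.950). In AMPKα1 it was the member with most reads, at 1078 and 535 CPM in KO and 1101 and 250 CPM in WT. The WT libraries differed by 4.40-fold, more than the genotypes did (log2 fold change 0.26, SE 0.73).

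Gpx4 (chr10:80047166-80056439, + strand) had few reads, 29 and 12 in AMPKα2 KO and 55 and 26 in WT, or 18.5 and 4.72 CPM against 16.1 and 12.3 CPM. One KO library was the highest of the 4 and the other the lowest, and the log2 fold change was −0.39 (SE 0.56, adjusted p = 0.898). In AMPKα1 it had 10 to 25 reads per library, and the log2 fold change was 0.16 with an SE of 2.03.

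Of the mitochondrial pair, Prdx3 (chr19:60864051-60874556, − strand), which removes hydrogen peroxide in the matrix, had 23.0 and 21.6 CPM in AMPKα2 KO and 30.7 and 25.5 CPM in WT. Both KO libraries were below both WT libraries, but the log2 fold change was −0.34 (SE 0.29, adjusted p = 0.789). In AMPKα1, Prdx3 varied 7.37-fold between the KO libraries, 12.5 and 92.2 CPM, and had 104 and 49.0 CPM in WT.

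Txn2 (chr15:77915047-77929006, − strand), the thioredoxin that serves Prdx3, was the member closest to equality in AMPKα2. It had 70.1 and 76.7 CPM in KO and 70.7 and 77.4 CPM in WT, a log2 fold change of −0.01 (SE 0.24, adjusted p = 0.994). In AMPKα1 it had 237 and 130 CPM in KO and 86.3 and 133 CPM in WT, and its log2 fold change of 0.75 (SE 0.50, adjusted p = 0.763) was the highest of that model, and ranged from 0.24 to 1.13 when 1 library was left out. A second APS, at position 77915204 in the 3′ UTR, held 7.56% of the Txn2 reads, and 117 of its 199 reads came from 1 AMPKα1 KO library, in which the dominant site held 75.2% of the reads of the gene. In AMPKα2 the second site gave 6 and 13 reads in KO against 10 and 5 in WT (log2 fold change 0.63, SE 0.62, adjusted p = 0.819).

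**Figure D5:**
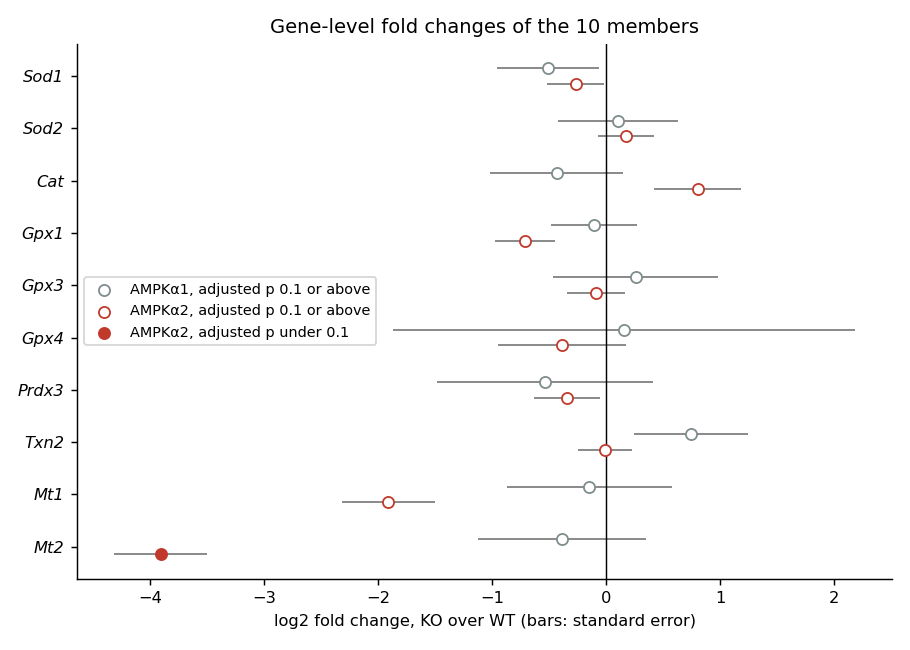
Log2 fold change of KO over WT (horizontal axis) for each member in the AMPKα1 model (grey) and the AMPKα2 model (red), with standard errors from the edgeR fit as bars and filled points for an adjusted p under 0.1. Mt2 in AMPKα2, at −3.91, is the filled point, and the 8 enzymes in AMPKα2 lie between −0.71 and 0.80.

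Counted over the list, AMPKα1 gave 4 members above and 6 below 0 on the log2 scale, with a median of −0.13 against −0.03 over all genes tested. It gave 0 of 10 calls. edgeR also called no gene of 13941 (0%), with 587 genes and 0 members at an unadjusted p under 0.05. DESeq2 called 1.23% of 10095 genes and none of the 10 members. The KO and WT libraries of 0 of 10 members did not overlap, against 32.5% of all genes tested. The biological coefficient of variation in this model was 104%, so the test could miss sizeable differences.

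AMPKα2 gave 2 members above and 8 below 0, with a median of −0.31 against −0.00455 over all genes, and a coefficient of variation of 26.2%. An unadjusted p under 0.05 was found for 3 members, Mt1, Mt2 and Gpx1, and for 898 of the 10552 genes. The KO libraries lay below both WT libraries for 4 of 10 members, Mt1, Mt2, Gpx1 and Prdx3, and above them for none, and 39.3% of all genes tested did not overlap in one direction or the other. The share of members is thus near that of all genes. Without the metallothioneins the 8 enzymes ranged from −0.71 to 0.80, 2 above and 6 below 0, with a median of −0.18. Their standard errors were 0.24 to 0.56.

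At the level of single APSs, 5 of the 22 member APSs tested in AMPKα2 had an unadjusted p under 0.05 in edgeR's test. The share of all APSs with such a p is not given here. The Mt2 site was the only member APS called (log2 fold change −4.04, SE 0.48, edgeR adjusted p = 0.0726), among 0.056% of 23218 APSs. This call was lost without KO replicate 1 (adjusted p = 0.200), without KO replicate 2 (0.149) and without WT replicate 2 (0.257). The Mt1 site did not pass (−2.03, SE 0.48, adjusted p = 0.478). In AMPKα1, edgeR called 0 of 18 member APSs tested and 0.00454% of 44024 APSs, and 0 of the 18 had an unadjusted p under 0.05. Of the member APSs, 9 of 27 (33.3%) had no read in any AMPKα1 library, against 12.6% of all APSs, and the deepest of these was the coding-exon site of Cat with 87 reads. In AMPKα2, 1 of 27 had no read, against 11.4% of all APSs. Every APS holds 16 or more reads over the 8 libraries, so an APS with none in 1 model entered through the other model alone.

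The genes around the members in the same pathways were read from 7 lists of 125 genes, of which 107 are in the table. In AMPKα1, 0 of 104 tested were called, and 5 had an unadjusted p under 0.05 in edgeR's test. Over all 13941 genes tested in that model, 0 were called and 587 had such a p. In AMPKα2, 0 of 95 were called, and 8 had such a p. Over all 10552 genes tested there, 0.673% were called and 898 had such a p. None of the listed genes passed, and the following are those with the lowest p in lists that bear on the members.

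Among the 9 metal handling genes tested in AMPKα2, 2 were above and 7 below 0, with a median log2 fold change of −0.10. The lowest p belonged to Slc39a14, a zinc and iron importer, with 1 and 2 reads in KO against 13 and 2 in WT. The next was Atp7a, a copper exporter, with 0 and 0 reads in KO against 2 and 26 in WT, so that 1 WT library carried it. Mt3, not among the 2 genes with the lowest p, had no read in either AMPKα2 KO library. It was not at 0 in both WT libraries, but its WT reads are not given here, so no difference is read from this.

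Among NRF2 regulators and targets, 7 of 15 were above and 8 below 0 in AMPKα2. Nfe2l2, which encodes NRF2, had 20.4 and 12.6 CPM in KO and 8.48 and 8.03 CPM in WT (log2 fold change 0.97, adjusted p = 0.533). Hmox1, the haem oxygenase, gave 0 and 2 reads in KO against 17 and 4 in WT (adjusted p = 0.440). Among glucocorticoid responsive genes, 6 of 14 were above 0, Pdk4 had 140 and 104 CPM in KO against 164 and 320 CPM in WT (−0.98, adjusted p = 0.406), and Per1 had 15.3 and 8.26 CPM against 5.55 and 3.78 CPM (1.26, adjusted p = 0.492).

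Of 18 thioredoxin and peroxiredoxin genes in AMPKα2, 8 were above and 10 below 0. Txnip, the inhibitor of thioredoxin, had 69.5 and 81.0 CPM in KO and 126 and 124 CPM in WT (log2 fold change −0.73, SE 0.24, adjusted p = 0.365). Its KO libraries were both below WT, as they were in AMPKα1, where it had 26.7 and 26.8 CPM in KO and 54.6 and 60.0 CPM in WT (−1.10, adjusted p = 0.763). Of the 19 glutathione genes, 10 were above 0, and the lowest p belonged to Glrx3, a glutaredoxin, at 0.54 (adjusted p = 0.632), and Gpx7, a glutathione peroxidase, at −1.26 (adjusted p = 0.723). Of 11 partners and sources of superoxide, 2 were above 0, among them xanthine dehydrogenase, Xdh, at 1.02 (adjusted p = 0.495), while the copper chaperone Cox17 stood at −0.42 (adjusted p = 0.694). Of 9 NADPH supply genes, 6 were above 0, among them Idh2 (0.65, adjusted p = 0.532), while malic enzyme Me1 stood at −0.92 (adjusted p = 0.417).

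In AMPKα1 the lowest p in the NRF2 list belonged to Mafg, a partner of NRF2, with 870 and 608 CPM in KO and 270 and 323 CPM in WT (log2 fold change 1.32, SE 0.39, adjusted p = 0.763). Fbxo32, a muscle ubiquitin ligase induced by glucocorticoids, had 1277 and 384 CPM in KO and 244 and 154 CPM in WT (2.06, adjusted p = 0.763). Tfrc, the transferrin receptor, led the metal handling list with 71.7 and 46.9 CPM in KO and 189 and 108 CPM in WT (−1.32, adjusted p = 0.763).

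In AMPKα2, 6 of 7 adipocyte markers were below 0 and their summed level was 192 to 316 CPM in KO and 257 to 590 CPM in WT. Of 7 macrophage markers tested, 6 were below 0, with 130 to 166 CPM in KO and 145 to 267 CPM in WT. The adipocyte markers with the lowest p were Cfd and Retn, and the macrophage markers with the lowest p Cd74 and Mrc1. In each, WT replicate 2 lay between the KO libraries and only WT replicate 1 above both. Cfd had 399 and 133 CPM in WT replicates 1 and 2, and 142 and 83.0 CPM in KO. Of 5 endothelial markers 4 were below 0, with 49.2 to 51.7 CPM in KO against 61.1 to 64.7 CPM in WT. Of the 8 fibre markers 7 were above 0, with 57924 to 76718 CPM in KO and 51852 to 56187 CPM in WT. All 6 slow-fibre markers were above 0, 5 of them at an unadjusted p under 0.05, with 2226 to 2267 CPM in KO and 686 to 1466 CPM in WT, and all 5 erythroid markers were above 0, with 968 to 1490 CPM in KO and 747 to 1130 CPM in WT. None of these markers was called, and none was at 0 in both libraries of an AMPKα2 group. Lep, Cldn5 and Slc4a1 were also chosen as markers, but the deposited values hold no APS under these symbols. The part of the markers in the lower Mt1 and Mt2 was not tested.

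The genes whose log2 CPM, centred over the 8 libraries, ran most like that of Mt1 were Il6st, Tmem256, Adam15, Rpl27a and Dysf, with root mean square differences of 0.55 to 0.58 among 4106 genes of at least 20 CPM on average. Mt2 came at place 941 of that order, at 0.90. For Mt2, Mt1 came closer than any of them. The next were Ptp4a2, Mgea5, Pla2g7, Ubb and Tnfrsf1a, at 0.92 to 1.05. Likeness over 8 libraries also holds what the libraries of a model share, such as scaling and depth.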

How the data were processed

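The authors sequenced WTTS-seq libraries on an Ion PGM instrument, filtered reads with the FASTX Toolkit, trimmed leading Ts, mapped reads with TMAP to the NCBI mouse genome (GRCm38.p5 per the labels), clustered read starts into APSs, and assigned genes with Cuffcompare. The deposited values are raw read counts per APS in 8 libraries, not normalized, and every APS has 16 or more reads over them; 6700 APSs without a gene, 9.33% of reads, were left out of the gene level.

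Counts were summed per gene, sense and antisense APSs alike, and tested per model in R 4.3.3 by edgeR 4.0.16 (TMM factors 0.744 to 1.16, robust quasi-likelihood fit, at least 16 reads over 4 libraries, Benjamini-Hochberg adjusted p under 0.1). TMM factors over all 8 libraries were 1.53 to 2.14 in AMPKα1 and 0.403 to 0.624 in AMPKα2. They served the interaction fit and the comparison of genes with Mt1 and Mt2. Standard errors are approximate, each computed from the fold change and its F. DESeq2 1.42.0, the study's tool, was an alternative. Others changed scaling, filter, threshold, block, libraries and APSs. Python 3.11.15, pandas 2.3.3, scipy 1.17.1 and matplotlib 3.10.9 made tables, intervals and figures. The fit was tested on simulated data.

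Members and lists were chosen with earlier results of these data known. Named were all members, their APSs with at least 5% of the reads, per list and model the 2 genes with the lowest p where none was called, and the 5 genes most like Mt1 and Mt2; of the list genes, those of lists that bear on the members are given. All 10 members matched a RefSeq promoter by symbol. Replicates are single mice.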

Additional observations from a re-analysis of the deposited data

How the results depend on the processing

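No member was called in AMPKα1 at the gene level under any of the alternatives. In AMPKα2 the count of members called, 1 as reported, was 2 with DESeq2, with at least 10 reads in 2 libraries, with library totals only, without a filter, with the replicate block and with sense APSs only, and 0 with all 8 libraries in one fit. Leaving out 1 library gave 1 to 2 members, where a lone sample was assumed to vary like the other group. At the APS level, 0 became 1 in AMPKα1 with all 8 libraries in one fit, and in AMPKα2 1 became 2 without a filter and with the replicate block, 0 with all 8 libraries and at an adjusted p under 0.05, and 0 to 1 when 1 library was left out. The interaction count of 0 became 1 with DESeq2. For Mt2 the interaction passed in 3 of 14 alternatives, and ranged from −4.17 to −2.81 on the log2 scale when 1 library was left out.

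Replicate numbers are shared by different mice, and same-numbered deviations had correlations of 0.0338 (AMPKα1) and −0.00626 (AMPKα2) across genes. No pairing was seen in these values, and whether same-numbered mice share a litter or run was not tested. With the replicate block, 2 members were called in AMPKα2, Mt1 at −1.86 (edgeR adjusted p = 0.0507) and Mt2 at −3.88, and 99 genes against 71. At the APS level the block gave 519 calls against 13.

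The adjusted p of Mt1 in AMPKα2 was 5.2e-05 without a filter and 0.0082 with library totals, 0.0706 to 0.845 when 1 library was left out, and 1 with all 8 libraries in one fit. Values that changed sign, none of them called, were Gpx1 (0.16) and Mt1 (0.14) in AMPKα1 with library totals only, Txn2 in AMPKα2 with all 8 libraries (0.027) and sense APSs only (0.0071), and the dominant Sod2 site in AMPKα2 with all 8 libraries (−0.012) and library totals only (−0.020). When 1 library was left out, log2 fold changes in AMPKα1 ranged from −0.89 to 0.075 for Sod1, −0.57 to 0.55 for Sod2, −0.92 to 0.35 for Cat, −0.42 to 0.14 for Gpx1, −0.41 to 1.69 for Gpx3, −0.29 to 0.49 for Gpx4, −2.61 to 0.27 for Prdx3, −0.83 to 0.45 for Mt1 and −1.11 to 0.085 for Mt2. In AMPKα2 they ranged from −0.048 to 0.41 for Sod2, −0.36 to 0.13 for Gpx3, −1.59 to 0.36 for Gpx4 and −0.088 to 0.057 for Txn2, with no change of sign from −0.48 to −0.041 for Sod1, and at the dominant sites from −0.15 to 0.87 for Cat, −1.67 to 0.19 for Gpx4 and −0.15 to 0.15 for Sod2. The causes were not tested. With 2 mice a group and few reads, small differences were not detectable.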
